A study of Mus musculus with 2 samples.

Results

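Cwc22 and 8 genes of the exon junction complex and of nonsense-mediated decay were examined in 2 mouse medulloblastoma libraries, 1 per Brg1 genotype. The 9 genes are Cwc22, Eif4a3, Magoh, Rbm8a, Casc3, Rnps1, Upf1, Upf2 and Upf3b, out of 23284 gene symbols in the table, and all 9 were found by symbol with 1 record each. Cwc22 was chosen by its FPKM values in these same 2 libraries, where it differed strongly, so its difference is given as a description. The other 8, called the partners, were picked for their place in the pathway, with earlier results of these data known. The question was whether the difference of Cwc22 is shared by its partners.

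The tumours arose in mice that carried CAG-CreER, a tamoxifen-inducible Cre under a broadly active promoter, and Rosa26-SmoM2, an activated form of the Hedgehog transducer Smoothened. The wild-type library came from a tumour of genotype CAG-CreER, Rosa26-SmoM2, Brg1+/+ and the knockout library from a tumour of genotype CAG-CreER, Rosa26-SmoM2, Brg1F/F, in which Cre can delete Brg1 (gene Smarca4), the ATPase of the BAF chromatin remodelling complex. Mice of both genotypes received tamoxifen in 10 injections. RNA was total RNA of dissected tumour tissue, which can hold other cells. The sources used here do not give strain, sex, age or the number of animals behind each library.

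Cwc22 is a protein of the catalytic spliceosome that binds the helicase eIF4A3 and brings it to the splicing machinery. eIF4A3 is then left on the spliced mRNA together with Magoh and Y14 (gene Rbm8a), as the core of the exon junction complex, which Casc3 joins. Rnps1 sits at the periphery of this complex, and Upf3b links it to Upf2 and to the helicase Upf1, which drives nonsense-mediated decay of mRNAs with premature stop codons. In the developing mouse brain, loss of a copy of Magoh, Rbm8a or Eif4a3 is known to give a small cortex, and mutations of human UPF3B cause intellectual disability.

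Levels are FPKM, fragments per kilobase of transcript scaled to the mapped fragments of the library, so they can be set side by side between genes. The log2 ratio is log2((knockout FPKM + 1)/(wild-type FPKM + 1)), computed for the 13279 records that reached 1 FPKM in either library, here called expressed. A record was called lower or higher when this ratio was at most -1 or at least 1, which is 2-fold. Each genotype has 1 library, so neither a replicate error nor a test could be given, and genotype, animal and library cannot be told apart. Where a pair of FPKM values is given, the wild-type library comes first. Among all expressed records 8.67% were called lower, 16.1% higher and 24.8% either way, and the median log2 ratio was 0.086. Smarca4 itself had 14.05 FPKM (wild type) against 3.76 FPKM (knockout).

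Cell type and cell cycle markers differed between the libraries. All 20 cell cycle markers were called lower, with summed FPKM of 1489 in the wild-type and 409 in the knockout library. Of 10 granule neuron precursor genes 5 were called lower and 0 higher (729 and 358). The log2 ratios of these 10 were not all in 1 direction, with 8 below 0 and 2 above. Genes that mark mature cell types had more FPKM in the knockout tumour, with sums of 130.0 and 547.0 for 8 granule neuron genes, 10.5 and 717 for 7 Purkinje cell genes, 60.4 and 681 for 7 oligodendrocyte genes, 408 and 2369 for 7 astrocyte genes, and 86.2 and 215 for 7 microglia genes. None of these markers was listed at 0 in either library. In bulk tissue, fewer cells of a type and less RNA per cell cannot be told apart. The libraries also differed in sex markers: Xist, the RNA of the inactive X chromosome, had 268.3 and 0.369 FPKM, and the Y-linked gene Eif2s3y had 0.0264 and 63.4 FPKM.

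Cwc22 (chromosome 2, 77895653 to 77946353, mm10) had 102.3 FPKM (wild type) against 3.55 FPKM (knockout). The wild-type value was 28.8-fold the knockout value, the knockout library kept 3.47%, and the log2 ratio was -4.51. Among the 9 genes Cwc22 ranked second of the wild-type library, above 7 partners and below Magoh only. In the knockout library it ranked eighth, below 7 partners and above Upf2 only. From the bounds deposited with each value, which ran from 102.9 to 105.1 FPKM in the wild-type and from 3.34 to 3.76 FPKM in the knockout library, the midpoints gave a log2 ratio of -4.53. By midpoints Cwc22 was below all 8 partners in the knockout library, since that of Upf2 was 11.5 FPKM. The wild-type FPKM of Cwc22 lay just under its own lower bound.

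**Figure D1:**
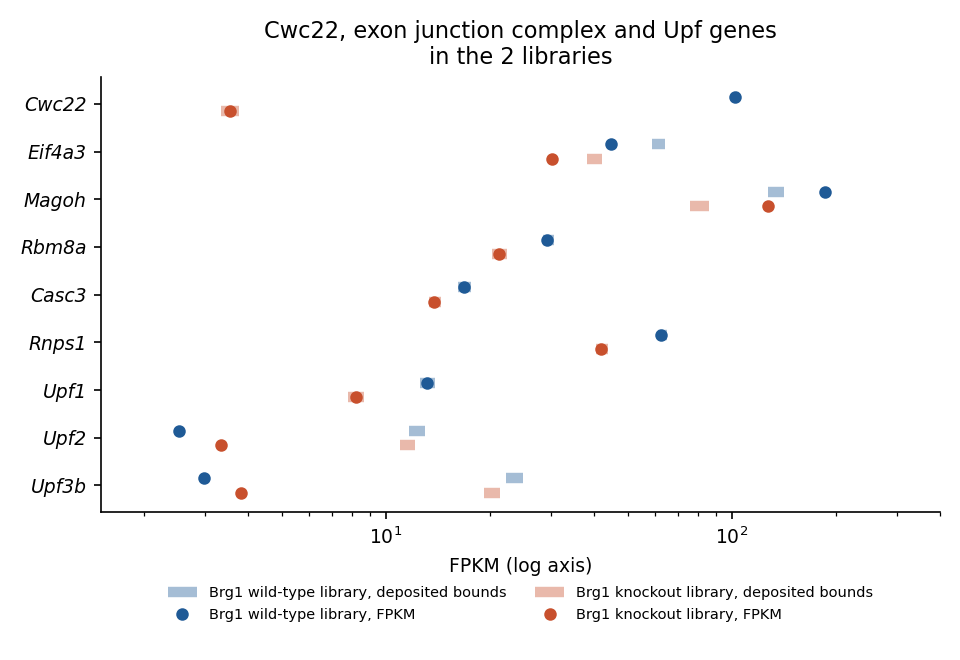
FPKM of the 9 genes in the wild-type library (blue points) and the knockout library (orange points) on a log axis, with the deposited lower and upper bounds as pale bars (1 library per genotype, so the bars are not replicate error). Cwc22 lay at 102.3 and 3.55 FPKM, while each partner's points lay close together, and the points of Eif4a3, Magoh, Upf2 and Upf3b lay outside their bars.

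The level of Cwc22 in the wild-type library was also above that of the spliceosomal genes listed here. In that library all 28 genes of a list of the Prp19-associated complex and the catalytic spliceosome, where Cwc22 acts, had less FPKM than Cwc22 (highest Bcas2, 61.6 FPKM). In the knockout library 26 of the 28 had more FPKM than Cwc22 and 2 had less, Cwc25 with 2.43 FPKM and Ccdc94 with 2.27 FPKM, although their bound midpoints of 6.79 and 6.84 FPKM lay above that of Cwc22. By FPKM, Cwc22 therefore stood at the top of this set in the wild-type library and near the bottom in the knockout library.

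Few genes of a like level were so far apart between the libraries. Cwc22 was chosen by this same difference, so its place among them is a description only. Of 904 other expressed records with a wild-type level from 51.2 to 204.6 FPKM (within 2-fold of Cwc22, without small RNA genes), 0 kept a smaller share of it in the knockout library. The median share kept was 80.0%, and 4 records kept under 10%. The lowest share was 3.49%, that of Sox18, a transcription factor gene. The share of Cwc22 was also smaller than that of each of the 20 cell cycle markers (lowest Ube2c, 13.2%) and of the 10 granule neuron precursor genes (lowest Gli2, 9.56%).

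With 2 libraries, likeness to Cwc22 is the log2 ratio alone. The 5 named genes with at least 5 FPKM in the wild-type library and the nearest ratio were Sox18 (145.2 and 5.06 FPKM, log2 ratio -4.59), Rprml (18.4 and 0.287 FPKM, -3.91), Rpl34-ps1 (13.2 and 0.00763 FPKM, -3.82), Dll3 (27.0 and 1.002 FPKM, -3.81) and Smoc1 (52.2 and 3.15 FPKM, -3.68). For Sox18 and Dll3 the FPKM lay outside the deposited bounds in both libraries. From the bound midpoints their log2 ratios were -3.91 and -2.98, so their likeness to Cwc22 depends on which deposited value is read. The midpoints of Rprml, Rpl34-ps1 and Smoc1 gave -3.86, -3.65 and -3.69. Rpl34-ps1 is a pseudogene whose reads may be those of its parent gene, so its values are uncertain. None of the 5 is in the spliceosome or exon junction complex lists.

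**Figure D2:**
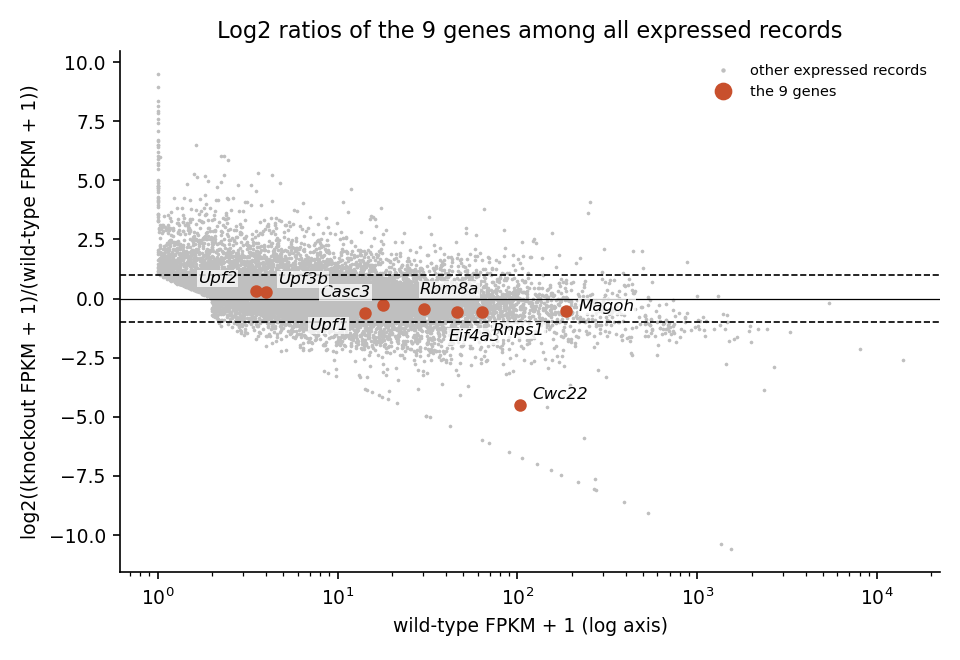
Log2 ratio of knockout to wild type (vertical axis) against the wild-type FPKM + 1 (log axis) for all 13279 expressed records in grey and the 9 genes in orange, 1 library per genotype; dashed lines mark the 2-fold rule. Cwc22 lay at -4.51, and the 8 partners lay between the dashed lines, from -0.62 to 0.30.

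Cwc22 is known to vary in copy number between mouse strains. Separately, the reference genome holds gene models close to it in sequence. Whether these models take part in the variation between strains was not tested. A search of GENCODE M21 transcripts on GRCm38 (mm10) for stretches of 50 bases shared with Cwc22 found 7 protein-coding gene models on chromosome 2. They lie between 83955693 and 83993045, about 6.01 Mb beyond the higher-coordinate end of Cwc22. These are Gm13691, Gm13693, Gm13694, Gm13695, Gm13696, Gm13697 and Gm13698, each with 1150 to 1154 shared stretches. A further model beside Cwc22, the processed transcript Gm13727 (77879753 to 77881467), had 138. The coding sequence of Gm13691 was 98.4% identical to that of Cwc22 over 2474 aligned bases (2435 identical). The closest 90-base stretch that still holds a difference is printed to show how little separates a read of Cwc22 from a read of a copy. It lies in exon 5 of 21 of Cwc22 (chr2:77931435-77931524, minus strand, coding bases 114 to 203) and in the only exon of Gm13691 (chr2:83990669-83990758, plus strand), with the differing base in capitals.
Cwc22: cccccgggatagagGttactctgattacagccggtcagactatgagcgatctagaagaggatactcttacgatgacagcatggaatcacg
Gm13691: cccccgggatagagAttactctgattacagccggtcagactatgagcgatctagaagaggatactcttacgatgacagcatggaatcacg
The other 89 of 90 bases were the same. A read that falls wholly in a shared stretch cannot be told apart from a Cwc22 read, so the FPKM of Cwc22 is uncertain as a measure of the gene at its own locus. None of the 7 models is named among the expressed records within 8 Mb of Cwc22, and no values of them were used here. The strain of each animal is not given and copy number was not measured in these libraries, so the part of copy number in the difference of Cwc22 was not tested.

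None of the nearest expressed records had a log2 ratio near that of Cwc22 (-4.51). The closest of them lay 78.8 kb away, so a change confined to Cwc22 would not show in them. Such a change was not tested. The 5 nearest expressed records on each side had log2 ratios from -0.60 to 1.71 (median 0.59). Of these 10, 0 were called lower and 4 higher, against 8.67% and 16.1% of all expressed records. With so few genes 0 lower is near its share, and 4 higher is above its share but says little. The nearest gene on the side of lower coordinates, the zinc finger gene Zfp385b at 78.8 kb, had 2.64 FPKM (wild type) against 8.93 FPKM (knockout). Sestd1 (15.7 and 22.4 FPKM), Ccdc141 (1.07 and 3.18), Plekha3 (15.8 and 10.04) and Fkbp7 (5.22 and 8.41) followed on that side. On the other side, the ubiquitin-conjugating enzyme gene Ube2e3 at 923 kb had 88.6 and 82.6 FPKM. Behind it came Itga4 (1.03 and 2.04 FPKM), Cerkl (1.44 and 1.81), Neurod1 (45.1 and 149.97), a transcription factor gene of granule neurons, and Ssfa2 (4.24 and 10.6). Around the 7 copies, the 2 nearest expressed genes on each side were called neither lower nor higher: Itgav (16.9 and 15.4 FPKM), Fam171b (5.25 and 10.8), Calcrl (1.22 and 1.68) and Tfpi (3.93 and 2.82). Within 8 Mb on either side, 7 of 76 records were called lower and 14 higher, with a median log2 ratio of 0.17, and these counts are near the shares over all expressed records. The lowest of the 76, Cdca7, had a log2 ratio of -2.47.

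**Figure D3:**
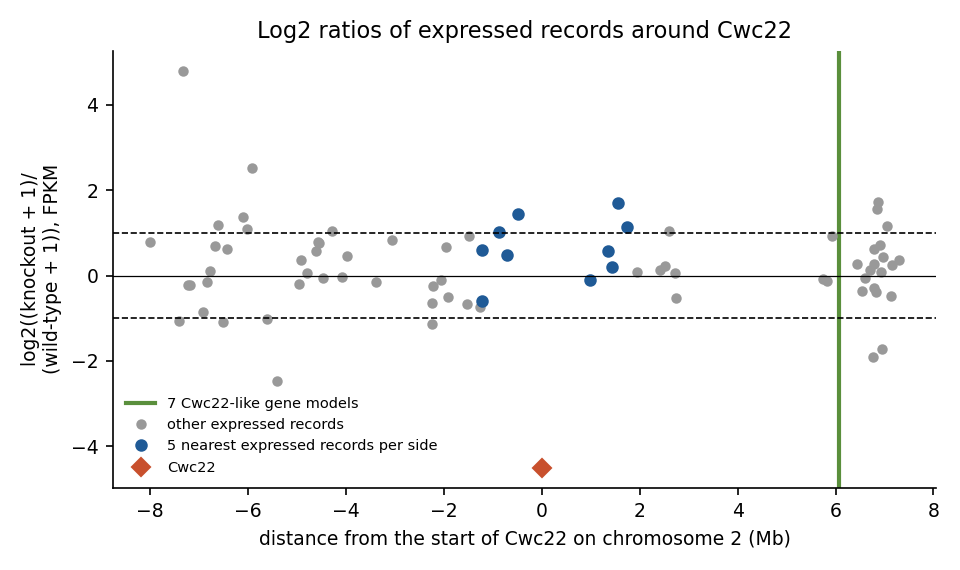
Log2 ratio of knockout to wild type (vertical axis) for expressed records within 8 Mb of Cwc22, 1 library per genotype. The horizontal axis is their distance in Mb from its start on chromosome 2, here its lowest coordinate. Cwc22 (diamond) lay at -4.51, the 5 nearest expressed records on each side (blue) lay between -0.60 and 1.71, and the green line marks the 7 Cwc22-like gene models.

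Copy number or deletion variants between laboratory strains are also known for Glo1, which is duplicated in some strains, and for Nnt, part of which is deleted in C57BL/6J mice. Glo1 had 29.7 FPKM (wild type) against 54.2 FPKM (knockout), a log2 ratio of 0.85. Nnt had 14.4 and 7.01 FPKM (log2 ratio -0.94). With 1 FPKM added to each value, both stayed under the 2-fold rule, in opposite directions. By FPKM alone, Nnt was 2.05-fold lower and Glo1 1.83-fold higher in the knockout library. Whether these differences come from strain was not tested.

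The difference of Cwc22 was not shared in size by its partners. None of the 8 partners was called lower or higher (0 of 8, against 24.8% of all expressed records), and they kept from 62.2% to 132.1% of their wild-type level. Their log2 ratios ran from -0.62 to 0.30 with a median of -0.49, against 0.086 for all expressed records. Below 0 were 6 of the 8, against 45.2% of all expressed records. These 6 make up the exon junction complex genes and Upf1, and the 2 above 0 were Upf2 and Upf3b.

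Of the core, Eif4a3 (chromosome 11, 119288363 to 119300043), the helicase that Cwc22 binds, had 44.9 FPKM (wild type) against 30.2 FPKM (knockout), a log2 ratio of -0.56. By FPKM the wild-type library had 2.28 times as much Cwc22 as Eif4a3 per length, and the knockout library 0.118 times. From the bound midpoints it was 1.69 and 0.0885 times. Bounds of Eif4a3 were 58.8 to 64.02 FPKM and 38.1 to 42.1 FPKM, above both FPKM values, with a log2 ratio of -0.60 from the midpoints.

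Magoh (chromosome 4, 107879813 to 107887398), which clamps eIF4A3 onto RNA together with Y14, was the most abundant of the 9 genes in both libraries. It had 186.1 FPKM (wild type) against 127.3 FPKM (knockout), a log2 ratio of -0.54, or -0.73 from the midpoints. Its paralog Magohb encodes a nearly identical protein and had 41.8 and 21.6 FPKM. Its log2 ratio was -0.92 by FPKM and -1.03 by midpoints, so by FPKM it came closest to the cutoff among the exon junction complex genes other than Cwc22. The coding sequences of Magoh and Magohb were 81.5% identical over 437 aligned bases. The closest 90-base stretch within an exon is printed to show how much further apart this pair is than Cwc22 and its copies. It lies in exon 3 of 5 of both genes, at chr4:107883071-107883160 (plus strand) and chr6:131288054-131288143 (minus strand), with the 15 differing bases in capitals.
Magoh: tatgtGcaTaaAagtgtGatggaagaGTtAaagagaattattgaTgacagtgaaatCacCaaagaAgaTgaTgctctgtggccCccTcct
Magohb: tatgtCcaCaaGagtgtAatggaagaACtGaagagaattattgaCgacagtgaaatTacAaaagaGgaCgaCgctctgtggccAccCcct

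Rbm8a (chromosome 3, 96629928 to 96633791), the gene of Y14, had 29.2 FPKM (wild type) against 21.2 FPKM (knockout), a log2 ratio of -0.44. Magoh and Y14 form a heterodimer, and the ratio of Magoh to Rbm8a FPKM was 6.36 in the wild-type and 5.99 in the knockout library. From the midpoints it was 4.57 and 3.79, so the ratio depends on which of the deposited values is read. Casc3 (chromosome 11, 98809808 to 98833807), the core factor that joins last, had 16.9 and 13.8 FPKM (log2 ratio -0.28), the smallest difference among the exon junction complex genes of the 9. Rnps1 (chromosome 17, 24414675 to 24425897), a splicing activator at the periphery of the complex, had 62.6 and 42.0 FPKM (log2 ratio -0.57). None of these 5 genes was past 2-fold, and the order of levels Magoh, Rnps1, Eif4a3, Rbm8a, Casc3 was the same in both libraries.

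Close copies also exist in the reference for 3 of these partners. At least 100 stretches of 50 bases were shared between Eif4a3 and each of Gm5576, Gm5580 and Gm8994 (177 to 228 stretches), between Rbm8a and Rbm8a2 (202), and between Rnps1 and the pseudogene Gm9825 (573). The other 5 partners shared at least 100 such stretches with no other gene. The sources used here do not say how reads were shared among such copies.

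Upf1 (chromosome 8, 70331522 to 70353273), the helicase at the centre of nonsense-mediated decay, had 13.2 FPKM (wild type) against 8.19 FPKM (knockout), a log2 ratio of -0.62, the lowest ratio among the partners. Upf2 (chromosome 2, 5951469 to 6056703), the adaptor that activates Upf1, had 2.52 and 3.33 FPKM (log2 ratio 0.30). Upf3b (chromosome X, 37091834 to 37110322), the bridge to the exon junction complex, had 2.98 and 3.81 FPKM (log2 ratio 0.27). Upf2 and Upf3b were thus the least abundant partners by FPKM, and slightly higher in the knockout library.

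The bounds of Upf2 and Upf3b give another picture. For Upf2 they were 11.6 to 13.0 FPKM in the wild-type and 11.0 to 12.1 FPKM in the knockout library, so the FPKM was 20.5% and 28.8% of the midpoint. For Upf3b they were 22.2 to 24.97 FPKM and 19.2 to 21.4 FPKM, so the FPKM was 12.6% and 18.8% of the midpoint. From the midpoints the log2 ratios were -0.085 for Upf2 and -0.21 for Upf3b, the opposite sign, and no direction can be given for either gene. By midpoints 8 of 8 partners were below 0 (against 47.7% of all expressed records), with a median of -0.51 and a lowest value of -0.73. Upf3b is X-linked, and the libraries differed in Xist; the part of sex in its values was not tested.

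FPKM lay outside its own bounds for 5 of the 9 genes in the wild-type library (Cwc22, Eif4a3, Magoh, Upf2 and Upf3b) and for 4 in the knockout library (the same without Cwc22). Of all expressed records, 49.0% lay outside in the wild-type and 51.2% in the knockout library. For 8 of the 9 genes the bounds of the 2 libraries did not overlap, and for Upf2 they did; among all expressed records the share without overlap was 77.7%. How the bounds were made is not given, and they hold no difference between animals.

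The wider pathway was read from fixed lists. Other exon junction complex genes were near the partners: 0 of 5 were called lower or higher (against 24.8% of all expressed records), and 5 of 5 log2 ratios were below 0 (against 45.2%), with a median of -0.32. Next to Magohb these were Acin1 (17.5 and 12.5 FPKM), Pnn (19.4 and 15.6 FPKM) and Sap18 (11.4 and 10.7 FPKM), which form the splicing subcomplexes that Rnps1 belongs to, and Pym1 (10.7 and 8.37 FPKM), which takes the complex apart on ribosomes. By midpoints their median was -0.66, and the FPKM of Acin1 was only 18.0% of its wild-type midpoint. Of 15 other genes of nonsense-mediated decay, termination and mRNA decay, 0 were called lower or higher, against 24.8% of all expressed records. Their median was -0.17, and 11 of 15 were below 0, against 45.2%. Pnrc2, which links Upf1 to decapping, had 53.1 and 52.8 FPKM, and the release factor gene Etf1 had 32.7 and 26.5 FPKM. Upf3a, the paralog of Upf3b, had 5.03 and 4.05 FPKM, with log2 ratios of -0.26 by FPKM and -0.57 by midpoints.

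The spliceosomal genes around Cwc22 stayed under the 2-fold rule as well. Of 28 genes of the Prp19-associated complex and catalytic spliceosome 0 were called lower or higher (against 24.8% of all expressed records), 15 were below 0 and 13 above, and the median was -0.026. The most abundant were Bcas2 (61.6 and 39.4 FPKM) and the helicase gene Dhx15 (52.2 and 50.9 FPKM). Their ratios spread from -0.86 for Ppie to 0.72 for Slu7. Ppie, chosen after its values were seen, was past the cutoff from the midpoints (-1.08).

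Relatives of eIF4A3 and proteins built, like Cwc22, on MIF4G or MA3 domains had log2 ratios from -0.40 to 0.37, with 0 of 9 called (against 24.8% of all expressed records) and a median of -0.13. Eif4a1, the main helicase of translation initiation, had 305.0 and 231.1 FPKM, and Eif4a2 had 157.7 and 176.1 FPKM. The initiation factor Eif4g2 had 247.1 and 200.1 FPKM.

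Among the wider lists of pathway factors, only the mRNA export list had genes past the 2-fold rule by FPKM. Of 13 genes 4 were called lower and 0 higher (against 8.67% and 16.1% of all expressed records), with a median of -0.76. The 4 were Thoc6 of the THO complex (18.5 and 5.80 FPKM, log2 ratio -1.52), the export adaptor Alyref (44.6 and 15.3 FPKM, -1.48), the helicase gene Ddx39 (35.6 and 12.1 FPKM, -1.48) and Nxt1, the partner of the export receptor Nxf1 (17.2 and 6.54 FPKM, -1.27). The cell cycle markers, all 20 called lower, had a median of -1.84; the part of dividing cells in the export list was not tested.

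**Figure D4:**
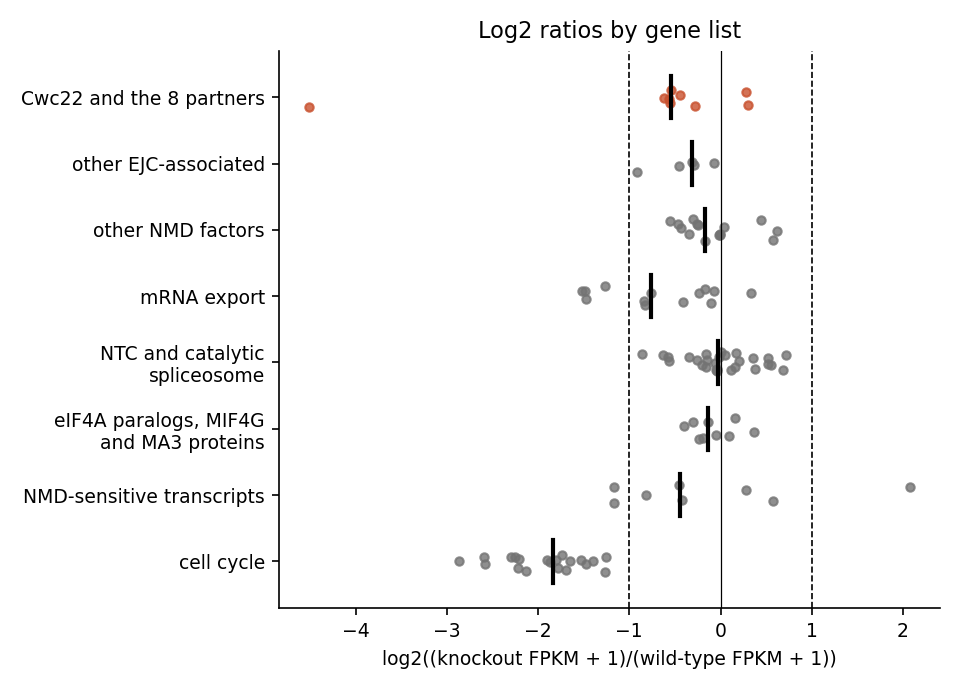
Log2 ratio of knockout to wild type for each expressed gene of 8 lists (points, with vertical jitter only for legibility), 1 library per genotype; black bars are list medians and dashed lines the 2-fold rule. Cwc22 lay at -4.51, apart from every other point, the partners and the spliceosomal list stayed within the dashed lines, and the cell cycle list lay beyond them.

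Transcripts known to be kept low by nonsense-mediated decay were found on both sides of the 2-fold rule. Of 8, 2 were called lower, 1 higher and 5 neither (median -0.44), against 8.67% lower and 16.1% higher among all expressed records, and counts this small say little about the group. The snoRNA host transcripts Gas5 (49.9 and 21.6 FPKM, log2 ratio -1.17) and Snhg1 (247.9 and 110.2 FPKM, -1.16) were lower, and the stress-response gene Gadd45b (3.66 and 18.6 FPKM, 2.07) was higher. The FPKM of Snhg1 was 248% and 244% of its bound midpoints (99.8 and 45.2 FPKM), from which the log2 ratio was -1.13. Gadd45a had 8.14 and 4.18 FPKM (log2 ratio -0.82), and Atf4 had 103.2 and 75.2 FPKM (-0.45). The rest were Snhg12 (25.9 and 19.0 FPKM, -0.43), Ddit3 (3.58 and 5.83 FPKM, 0.58) and Atf3 (1.02 and 1.46 FPKM, 0.28). Of the 8 log2 ratios, 5 were below 0 and 3 above. The levels of whole genes do not show which splice forms or premature stop codons were present.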

How the data were processed

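Per the file headers, each deposited FPKM comes with bounds on both sides and a status for its gene record. Build mm10 and Cuffdiff 2.1.1 are named in the submitters' processing notes. What aligner, annotation and filters were used, how reads were shared among copies and how the bounds were made is left unsaid by the sources used here. No counts are given, so depth is unknown. FPKM summed to 388032 in the wild-type and 343028 in the knockout library.

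Records were joined by symbol and locus (23746). File starts count from 0 and are printed from 1. Log2 ratios used a pseudocount of 1 FPKM, records of at least 1 FPKM in 1 library, and a fixed 2-fold rule in place of a test. The 9 genes, the lists and the alternatives were chosen with earlier results of these data known. Named were the 9 genes, paralogs, up to 4 list members past 2-fold or otherwise the 2 most abundant, the 5 nearest expressed records on each side of Cwc22, and the 5 genes with the nearest ratio, without small RNA genes and unnamed models. An alternative reading from the bound midpoints is given beside the FPKM where it matters. Ppie, Slu7, Cwc25, Ccdc94, Cdca7, Ube2c, Gli2, Acin1, Sap18, Pym1 and the genes around the copies were named after their values were seen. So were Gadd45a, Atf4, Snhg12, Ddit3 and Atf3. List symbols were matched through RefSeq synonyms. Sequences come from GENCODE M21, aligned with Biopython 1.88. The ratio script was tested on simulated data. Calculations ran in Python 3.11.15 with pandas 2.3.3 and numpy 2.4.6, and plots in matplotlib 3.10.9. Cell type marker lists are given as sums over all their genes; the 2 most abundant of each, which the rule also covers, are not named.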

Additional observations from a re-analysis of the deposited data

How the results depend on the processing

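There was 1 library per genotype, so nothing here has a replicate error. No paired analysis was possible because each genotype has a single library and no test was run. The log2 ratio of Cwc22 ran from -4.81 to -4.37 over 12 alternatives, always past 2-fold. Those alternatives that only filter records or move the cutoff could not change this ratio. The median of the partners ran from -0.58 to -0.32. Upf2 and Upf3b turned below 0 from the bound midpoints (-0.085 and -0.21), and under a minimum of 5 FPKM they have no value. At 1.5-fold, 2 of the 9 genes passed, 1 of them a partner (Upf1, -0.62), against 46.0% of all expressed records. So did 1 of 5 other exon junction complex genes, 1 of 15 other decay genes and 4 of 28 spliceosomal genes. Of the export genes 7 of 13 passed, and of the decay-sensitive transcripts 4 of 8, both near the share over all expressed records. The export median of -0.76 was then past the cutoff. At 4-fold, 0 of 13 export genes and 1 of 8 decay-sensitive transcripts passed, against 5.67% of all expressed records. From the midpoints 1 of 5 other exon junction complex genes and 1 of 28 spliceosomal genes passed 2-fold, against 24.4% of all expressed records. After centring on the median 1 of 5 other exon junction complex genes (Magohb) passed, against 24.3%. With FPKM rescaled to the same sum, the spliceosomal median was 0.14 and that of the eIF4A and MIF4G list 0.040; without small RNA genes in the sum the spliceosomal median was 0.036. These medians lie near 0, so no direction can be given for either list. Rescaling to the same sum moved the median of all expressed records to 0.24 and the share called higher from 16.1% to 19.8%. No counts are given, so the depth behind each value is unknown.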

Other observations

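Whether a deposited FPKM lay outside its own bounds went with how many transcription start groups the record lists. Of 11846 expressed records with 1 start group, 54.2% lay outside in the wild-type and 56.5% in the knockout library. Of 1433 with several start groups, 6.21% and 7.19% did. The same records tended to be affected in both libraries: of those outside in the wild-type library 87.1% were outside in the knockout library, against 16.6% of those inside. The sign of the log2 ratio differed between FPKM and bound midpoints for 5.37% of expressed records, Upf2 and Upf3b among them. All 9 genes described above have 1 start group.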
